A study of Homo sapiens with 15 samples.

Results

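JARID2, AEBP2, PHF1 (PCL1), MTF2 (PCL2), PHF19 (PCL3) and C17orf96 (now called EPOP) encode the accessory subunits of Polycomb repressive complex 2, PRC2. The 6 genes were taken by name from a table of 26443 genes with values, and all 6 were found. The cells were LNCaP, an established human prostate cancer cell line, given as wild type in the labels, grown in 10% fetal bovine serum. They were infected with lentivirus for 4 to 5 days and profiled by RNA-seq, with 3 libraries in each of 5 groups. The viruses carried a hairpin against PALI1 (shPALI1), G9a (shG9a), JARID2 (shJarid2) or SUZ12 (shsuz12), or the control vector pLKO. Each target is represented under 1 hairpin name, all groups were infected, and the labels do not say whether the 3 libraries of a group came from separate cultures, so the p-values below reflect only library-to-library spread, which may be technical. PALI1 is a PRC2 cofactor encoded at the LCOR locus, G9a is a histone H3 lysine methyltransferase, and SUZ12 is the scaffold subunit of PRC2.

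PRC2 methylates histone H3 on lysine 27, a mark of repressed developmental genes. A shared catalytic core binds accessory subunits in alternative sets. In one form, PRC2.2, JARID2 and AEBP2 help the complex recognise chromatin that PRC1 has ubiquitinated. In the other, PRC2.1, 1 of the Polycomb-like proteins PHF1, MTF2 and PHF19 brings the complex to CpG-rich DNA, together with either EPOP or a PALI protein.

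The 3 libraries of a group correlated at Pearson's r of 0.986 to 0.992 over the genes tested, except that shJarid2 replicate 3 correlated with the other shJarid2 libraries at 0.974 and 0.978. Without it the differences from pLKO in shJarid2 were -1.83 for JARID2, -0.55 for MTF2 and -0.04 for PHF19, and those of the other 3 genes stand with their results. Depth was 10.6 to 19.4 M reads per library, recovered from the size of a single-read step. All 8 luminal prostate markers examined, among them KLK3 and FOLH1, averaged at least 1 RPKM (reads per kilobase of gene model per M reads) in every group. Their summed level was 752 to 867 RPKM in shPALI1, 969 to 1039 in shG9a, 1647 to 1922 in shJarid2 and 1185 to 1275 in shsuz12, against 1943 to 2115 RPKM in pLKO libraries. KLK3 made up much of that sum, and without it the other 7 summed to 1107 to 1192 RPKM in shJarid2, against 907 to 958 RPKM in pLKO, but stayed below pLKO under the other hairpins (490 to 657 RPKM). In shJarid2 4 of the 8 rose, among them KRT8 by 0.94, and 2 fell. Markers of other cell types were low, with summed levels of at most 5.21 RPKM for basal, 4.94 for immune, 2.48 for endothelial, 6.02 for fibroblast and 14.3 for neuroendocrine lists, in part at 0 in all 3 libraries of a group. Some of them moved with a hairpin, in both directions. KRT14 rose by 1.89 in shJarid2, and SYP by 1.82 in shsuz12 and 0.77 in shG9a. VWF rose by 0.88 in shG9a, COL3A1 by 1.24 in shPALI1, and CD68 by 0.46 in shPALI1 and 0.45 in shJarid2. COL1A1, of the same fibroblast list as COL3A1, fell in shPALI1 (-0.41) and fell further in shJarid2. KRT14 also fell in shG9a, VWF in shPALI1 and SYP in shJarid2. The part of these shifts in the results below was not tested, and in bulk RNA fewer cells of a type and less RNA per cell cannot be told apart. Differences below are on the log2(RPKM + 1) scale, which understates changes of low genes, and come from limma fitted over 12715 genes with Benjamini-Hochberg adjustment, called at an adjusted p below 0.05. In each hairpin group the targeted gene lay below every pLKO library, at 12.5% to 25.7% of the mean pLKO level: C10orf12 in shPALI1, EHMT2 (G9a) in shG9a, JARID2 in shJarid2 and SUZ12 in shsuz12. The 4 comparisons with the control share the same 3 pLKO libraries.

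Of the 6 genes, 2 passed the test in shPALI1 against pLKO, where 41.6% of all tested genes did. In shG9a 3 of 6 passed against a background of 43.1%, in shJarid2 4 of 6 against 51.0%, and in shsuz12 3 of 6 against 53.9%. These shares were near the background in every comparison, so the results below concern single genes and not the set. The median absolute difference of the 6 was 0.21 in shPALI1, 0.23 in shG9a, 0.43 in shJarid2 and 0.22 in shsuz12. Over all tested genes it was 0.24, 0.24, 0.29 and 0.30 in the same order. The shJarid2 count and median include JARID2, the target of that hairpin, at -1.90. The members that passed differed between hairpins: C17orf96 passed under 3 hairpins, MTF2 under 3, JARID2, AEBP2 and PHF1 under 2 each, and PHF19 under none.

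**Figure D1:**
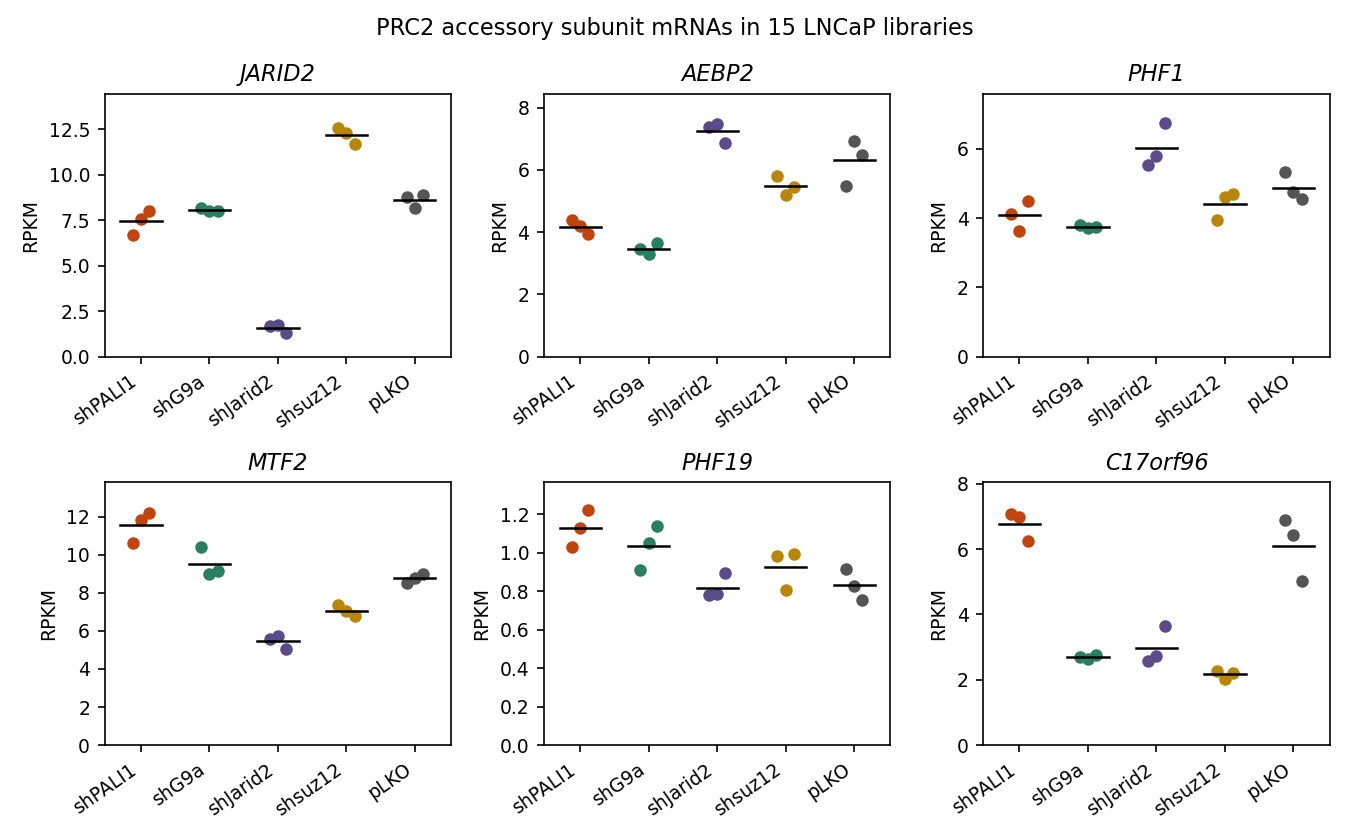
RPKM of each of the 6 genes in every library (points) with the group mean (line), in 5 groups of 3 libraries. C17orf96 sits between 2.03 and 3.64 RPKM in shG9a, shJarid2 and shsuz12 libraries, and between 5.01 and 7.07 RPKM in shPALI1 and pLKO libraries.

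JARID2 contacts both the catalytic core and the nucleosome, and it defines PRC2.2. It had 1.70, 1.72 and 1.32 RPKM in shJarid2 libraries, 12.6, 12.3 and 11.7 RPKM in shsuz12 libraries, and 8.79, 8.18 and 8.90 RPKM in pLKO libraries. The groups do not overlap: the targeted gene was lowest in all 3 shJarid2 libraries and highest in the shsuz12 libraries. The difference was -1.90 ± 0.08 (SE) in shJarid2 (adjusted p = 7.5e-10), which left 18.3% of the mean pLKO level. In shsuz12 JARID2 rose by 0.45 ± 0.08 (adjusted p = 0.00022), to 141% of the mean pLKO level. That rise was not among the larger ones in its comparison, where 32.4% of tested genes had a larger absolute difference.

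In shPALI1 libraries JARID2 had 6.70, 7.60 and 8.04 RPKM, all below the pLKO libraries. The difference of -0.19 did not pass (95% interval -0.36 to -0.02, adjusted p = 0.063). It passed without shPALI1 replicate 3 (adjusted p = 0.043) and without shJarid2 replicate 3 (adjusted p = 0.0226), which enters only through the shared estimate of spread. The shG9a libraries had 8.18, 8.0 and 8.0 RPKM, a difference of -0.09 (95% interval -0.25 to 0.08, adjusted p = 0.39). A change of JARID2 beyond those bounds was therefore not seen with either hairpin.

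AEBP2, a zinc finger protein that stabilises the PRC2 core and binds ubiquitinated nucleosomes with JARID2, had 4.39, 4.21 and 3.94 RPKM in shPALI1 libraries. It had 3.45, 3.30 and 3.65 RPKM in shG9a libraries, against 5.49, 6.94 and 6.49 RPKM in pLKO libraries. All 6 libraries of these hairpins lay below all 3 pLKO libraries. AEBP2 fell by 0.49 ± 0.08 in shPALI1 (adjusted p = 0.00022) and by 0.71 ± 0.08 in shG9a (adjusted p = 8.7e-06), which left 66.3% and 55% of the mean pLKO level. In shG9a 9.14% of tested genes had a larger absolute difference, and in shPALI1 19.6%.

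In the other 2 groups AEBP2 overlapped the control. The shJarid2 libraries had 7.39, 7.48 and 6.86 RPKM, a difference of 0.18 that did not pass (95% interval 0.01 to 0.35, adjusted p = 0.075). It passed without pLKO replicate 2 (0.24, adjusted p = 0.0302) and without shJarid2 replicate 3 (0.21, adjusted p = 0.0469), and with median ratio scaling (0.21, adjusted p = 0.0433) or quantile normalization (0.21, adjusted p = 0.0383). The shsuz12 libraries had 5.80, 5.18 and 5.45 RPKM, a difference of -0.17 (adjusted p = 0.086) that passed without pLKO replicate 1 (-0.25, adjusted p = 0.0137). Both partners in PRC2.2 were thus measured in every library, and the hairpins under which AEBP2 fell were not those under which JARID2 passed the test.

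**Figure D2:**
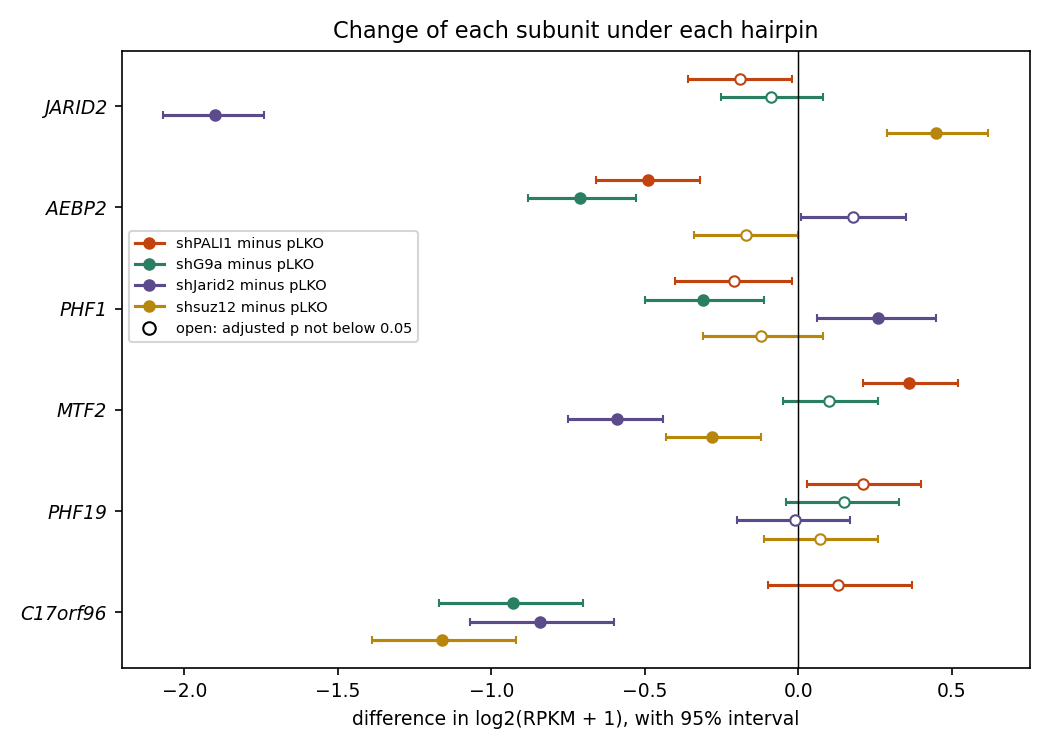
Difference in log2(RPKM + 1) of each gene in each hairpin group minus pLKO, with its 95% interval from limma. Filled points had an adjusted p below 0.05 and open points did not. AEBP2 lies lowest in shG9a at -0.71, and C17orf96 lies between -1.16 and -0.84 in shG9a, shJarid2 and shsuz12.

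The 3 Polycomb-like genes did not move as a block. Their proteins share a Tudor domain that binds methylated H3 lysine 36 and a winged-helix region that binds unmethylated CpG DNA. MTF2, the Polycomb-like protein best known from embryonic stem cells, had 10.6, 11.8 and 12.2 RPKM in shPALI1 libraries. It had 5.59, 5.75 and 5.06 RPKM in shJarid2 libraries, 7.38, 7.02 and 6.78 RPKM in shsuz12 libraries, and 8.49, 8.78 and 9.0 RPKM in pLKO libraries. All 3 hairpin groups were clear of the control, shPALI1 above it and the others below.

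MTF2 rose by 0.36 ± 0.07 in shPALI1 (adjusted p = 0.0012), to 132% of the mean pLKO level. It fell by 0.59 ± 0.07 in shJarid2 (adjusted p = 1.1e-05), to 62.4%, a difference exceeded by 20.3% of tested genes. In shsuz12 it fell by 0.28 ± 0.07 (adjusted p = 0.0053), to 80.7%. The shsuz12 call depended on the scaling: it was lost with median ratio scaling (-0.18, adjusted p = 0.0612) and when each library was scaled to a common sum (-0.16, adjusted p = 0.235). In shG9a libraries MTF2 had 10.4, 8.97 and 9.14 RPKM, which overlapped the control (difference 0.10, 95% interval -0.05 to 0.26, adjusted p = 0.27).

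PHF1, a Polycomb-like protein that raises PRC2's residence on DNA, had 3.79, 3.71 and 3.74 RPKM in shG9a libraries and 5.53, 5.78 and 6.75 RPKM in shJarid2 libraries, against 5.32, 4.76 and 4.54 RPKM in pLKO libraries. The shG9a libraries all lay below the control and the shJarid2 libraries all above it. PHF1 fell by 0.31 ± 0.09 in shG9a (adjusted p = 0.013) and rose by 0.26 ± 0.09 in shJarid2 (adjusted p = 0.028). The shG9a call was lost without pLKO replicate 1 (-0.25, adjusted p = 0.0592) and with a common sum (-0.21, adjusted p = 0.0508). The shJarid2 call was lost without pLKO replicate 2 (0.24, adjusted p = 0.0727), pLKO replicate 3 (0.21, adjusted p = 0.101) or shJarid2 replicate 3 (0.18, adjusted p = 0.0969), and when the shJarid2 and pLKO libraries were fitted alone (adjusted p = 0.1).

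In shPALI1 libraries PHF1 had 4.11, 3.63 and 4.49 RPKM, all below the control. The difference of -0.21 missed the threshold (adjusted p = 0.071) and passed without shPALI1 replicate 3 (-0.27, adjusted p = 0.0464) or shJarid2 replicate 3 (adjusted p = 0.038). The shsuz12 libraries had 3.95, 4.62 and 4.69 RPKM and overlapped the control (-0.12, adjusted p = 0.29). An exon of PHF1 overlaps one of CUTA by 12 bases in GENCODE v29, and whether counting used strand is not given in the sources used here.

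PHF19, the Polycomb-like protein often reported as abundant in cancers, was the lowest of the 6 genes in all 5 groups. It had 1.03, 1.13 and 1.22 RPKM in shPALI1 libraries, 0.908, 1.05 and 1.14 in shG9a, 0.781, 0.783 and 0.892 in shJarid2 and 0.984, 0.805 and 0.992 in shsuz12, against 0.915, 0.828 and 0.755 RPKM in pLKO libraries. These values rest on 42 to 91 reads per library, a counting error of 10.5% to 15.4%. Only the shPALI1 libraries all lay above the control, with a difference of 0.21 that did not pass (95% interval 0.03 to 0.40, adjusted p = 0.061). It passed with no filter on low values (0.21, adjusted p = 0.0349) and with median ratio scaling (0.24, adjusted p = 0.0373). PHF19 entered the test only through 5 libraries at or above 1 RPKM, all of them shPALI1 or shG9a. With the other 3 hairpins its differences were 0.15 in shG9a, -0.01 in shJarid2 and 0.07 in shsuz12, with adjusted p of 0.19, 0.93 and 0.51.

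The RefSeq promoter windows of 5 of these genes, all but C17orf96, hold 19 to 48 CG pairs each, beside a median of 14 over all promoters. Fewer CG pairs than in the PHF1 window are found in 57.1% of all promoters, and fewer than in the 2 JARID2 windows in 66.1% and 92.4%. A word of the E2F type is in 1 window each of AEBP2, MTF2 and PHF19. The other PHF19 window and those of JARID2 and PHF1 hold none. E2F factors drive genes of DNA replication and the cell cycle, lists of which fell in these libraries, and the words are shown for that reason. RefSeq promoters (GRCh38.p14, 250 bases before to 50 after the start) were given for JARID2, AEBP2, PHF1, MTF2 and PHF19. Of all 35116 promoters 3.31% hold TTTCCCGC, TTTCGCGC, TTTGCCGC or TTTGGCGC on either strand, words that were chosen after the promoters had been read. In the lines below capitals mark the word, which in MTF2 and PHF19 is TTTCCCGC read on the other strand.
AEBP2, chr12:19440439-19440466, plus strand: aaggcgacgtTTTGCCGCgatccccctg
MTF2, chr1:93079278-93079305, plus strand: ccggcagtccGCGGGAAAccaaaatggc
PHF19, chr9:120877323-120877350, minus strand: tcaataattcGCGGGAAAacgcgaaaaa
The word begins 150 bases before the start in AEBP2 and 152 bases before it in PHF19, and lies just after the start in MTF2. A match is a description of the letters and not a site. Any part of E2F factors in these genes was not tested.

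C17orf96 encodes EPOP, which joins PRC2.1 and links it to elongin BC. It had 2.71, 2.63 and 2.75 RPKM in shG9a libraries, 2.57, 2.74 and 3.64 in shJarid2 libraries and 2.27, 2.03 and 2.20 in shsuz12 libraries, against 6.90, 6.42 and 5.01 RPKM in pLKO libraries. All 9 of these hairpin libraries lay below every pLKO library. C17orf96 fell by 0.93 ± 0.11 in shG9a (adjusted p = 1.3e-05), by 0.84 ± 0.11 in shJarid2 (adjusted p = 2.2e-05) and by 1.16 ± 0.11 in shsuz12 (adjusted p = 1e-06). This left 44.1% of the mean pLKO level in shG9a, 48.9% in shJarid2 and 35.4% in shsuz12. What was counted under C17orf96 is uncertain, since its length exceeds the annotated gene, as set out below.

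Differences of that size were uncommon: 4.24% of tested genes had a larger absolute difference in shG9a, 9.81% in shJarid2 and 3.32% in shsuz12. Without shJarid2 replicate 3, which held the highest C17orf96 level of its group, the shJarid2 difference was -0.95 (adjusted p = 3.46e-06). In shPALI1 libraries C17orf96 had 7.07, 6.97 and 6.25 RPKM and overlapped the control, with a difference of 0.13 (95% interval -0.10 to 0.37, adjusted p = 0.35). That interval excludes a fall of the size measured under any of the other 3 hairpins.

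Direct tests between hairpin groups separated shPALI1 from the others at C17orf96. Its difference was 1.07 ± 0.11 in shPALI1 minus shG9a (adjusted p = 2.2e-06), 0.97 ± 0.11 in shPALI1 minus shJarid2 (adjusted p = 3.3e-06) and 1.29 ± 0.11 in shPALI1 minus shsuz12 (adjusted p = 2.7e-07). The shG9a libraries did not pass the test against the shJarid2 libraries (-0.10, 95% interval -0.33 to 0.14, adjusted p = 0.47) or against the shsuz12 libraries (0.22, 95% interval -0.01 to 0.46, adjusted p = 0.11), although every shG9a library lay above every shsuz12 library and the difference passed when those groups were fitted alone (adjusted p = 0.0283). Between shJarid2 and shsuz12 the difference of 0.32 passed (adjusted p = 0.021), but not without shJarid2 replicate 3 (0.21, adjusted p = 0.0907) or shsuz12 replicate 2 (0.29, adjusted p = 0.0679).

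In shPALI1 minus shJarid2 all 6 genes passed and no gene's groups overlapped, where 62.3% of all tested genes passed and 62.5% had groups that did not overlap. The 6 include JARID2, the target of a hairpin compared, and PHF19, which entered the test only through shPALI1 and shG9a libraries. MTF2 averaged 11.5 ± 0.80 RPKM in shPALI1 and 5.46 ± 0.36 RPKM in shJarid2 (SD, n = 3 each), a difference of 0.95 (adjusted p = 5.5e-08). AEBP2 went the other way, with 4.18 ± 0.23 RPKM in shPALI1 and 7.24 ± 0.34 RPKM in shJarid2, a difference of -0.67 (adjusted p = 5.1e-06). PHF1 averaged 4.08 ± 0.43 RPKM in shPALI1 and 6.02 ± 0.65 RPKM in shJarid2, a difference of -0.47 (adjusted p = 0.00041). PHF19 passed narrowly at 0.23 (adjusted p = 0.035), and lost its call without shPALI1 replicate 2 or 3 (adjusted p = 0.0727 and 0.109) or shJarid2 replicate 1 or 2 (adjusted p = 0.0873 and 0.0886), and with quantile normalization (0.07, adjusted p = 0.485). JARID2 itself was higher in shPALI1 by 1.71.

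In shPALI1 minus shG9a, 3 of 6 genes passed against a background of 48.2%: C17orf96, MTF2 (0.26, adjusted p = 0.009) and AEBP2 (0.21, adjusted p = 0.039). The AEBP2 call was lost without shPALI1 replicate 1 or 2 (adjusted p = 0.122 and 0.0885) and without shG9a replicate 1 or 2 (adjusted p = 0.0844 and 0.123). With a common sum both the AEBP2 call (0.14, adjusted p = 0.3) and the MTF2 call (0.17, adjusted p = 0.198) were lost. In shPALI1 minus shsuz12, 4 of 6 passed against 55.9%, with JARID2 at -0.64 (adjusted p = 8e-06), MTF2 at 0.64 (adjusted p = 4.6e-06) and AEBP2 at -0.32 (adjusted p = 0.0032) beside C17orf96.

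In shG9a minus shJarid2, 4 of 6 passed against 55.8%, with AEBP2 at -0.88 (adjusted p = 5e-07), MTF2 at 0.70 (adjusted p = 2.1e-06), PHF1 at -0.56 (adjusted p = 0.00012) and JARID2 at 1.82 (adjusted p = 4.4e-10). The 4 include JARID2, the target of shJarid2. In shG9a minus shsuz12, 3 of 6 passed against 45.6%, namely JARID2 at -0.54 (adjusted p = 6.5e-05), AEBP2 at -0.54 (adjusted p = 8.4e-05) and MTF2 at 0.38 (adjusted p = 0.00069). In shJarid2 minus shsuz12, 5 of 6 passed against 59.0%, all but PHF19 and with JARID2, the target of shJarid2, among them. There AEBP2 was higher by 0.35 (adjusted p = 0.0018), PHF1 was higher by 0.37 (adjusted p = 0.0026) and MTF2 was lower at -0.32 (adjusted p = 0.0017). With a common sum the AEBP2 call (0.21, adjusted p = 0.104) and the C17orf96 call (0.21, adjusted p = 0.0583) were lost in this comparison. The hairpins against the 2 PRC2 subunits JARID2 and SUZ12 thus differed in these mRNAs as well as in JARID2 itself, at -2.36 (adjusted p = 8.5e-11).

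**Figure D3:**
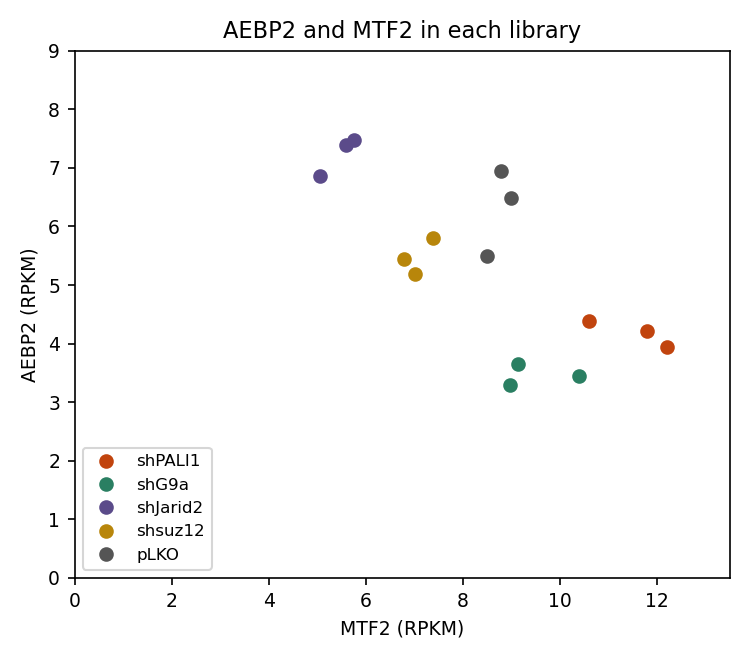
AEBP2 against MTF2, both in RPKM, with 1 point per library coloured by group. The shJarid2 libraries lie at high AEBP2 (6.86 to 7.48) and low MTF2 (5.06 to 5.75), and the shPALI1 libraries at low AEBP2 (3.94 to 4.39) and high MTF2 (10.6 to 12.2).

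Over the 15 libraries AEBP2 and MTF2 had a Pearson's r of -0.73, AEBP2 and PHF1 of 0.79, and PHF1 and MTF2 of -0.76. C17orf96 had an r of -0.04 with AEBP2, -0.02 with PHF1 and 0.59 with MTF2. These are descriptions of 15 points that share 5 group means and their libraries, and carry no test.

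Since the accessory subunits compete for places on the same core, their levels were also set against each other within each library. RPKM is a level per length, and the lengths that give whole reads were 6207 bases for JARID2, 5807 for AEBP2, 4590 for PHF1, 4128 for MTF2, 4774 for PHF19 and 6458 for C17orf96. The lengths for C17orf96, PHF1 and JARID2 exceed the exons of their GENCODE v29 genes (3719, 3596 and 6015 bases). MTF2, AEBP2 and PHF19 have longer exons there (5909, 6572 and 6733 bases), so the order of levels between genes is uncertain. Differences between groups use the same length for a gene in every group. For C17orf96 the length also exceeds the whole RefSeq span of the gene (3255 bases). Which sequence was counted under that name is therefore uncertain, and so is how far its group differences are those of EPOP alone. In pLKO the order was MTF2 (8.75 ± 0.26 RPKM) and JARID2 (8.62 ± 0.39), which overlapped, then AEBP2 (6.31 ± 0.74), C17orf96 (6.11 ± 0.98) and PHF1 (4.88 ± 0.40), each overlapping the next, and PHF19 (0.833 ± 0.080; SD, n = 3 each). MTF2 had the highest value in shPALI1 and shG9a, AEBP2 in shJarid2 and JARID2 in shsuz12. With GENCODE exon lengths for all 6 genes, a choice made after seeing the data, the leading gene was C17orf96 in shPALI1 (11.7 RPKM), JARID2 in shG9a (8.32), PHF1 in shJarid2 (7.68), JARID2 in shsuz12 (12.6) and C17orf96 in pLKO (10.6). The leading gene was the same with either length in shsuz12 alone, and PHF19 was lowest in all 5 groups with both.

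The 3 Polycomb-like mRNAs summed to 1.44 ± 0.047 times JARID2 plus AEBP2 in shPALI1, 1.24 ± 0.047 times in shG9a, 1.4 ± 0.13 times in shJarid2 and 0.704 ± 0.029 times in shsuz12, against 0.97 ± 0.053 times in pLKO (SD, n = 3 each). The ratio was thus lowest in shsuz12, where JARID2 was highest. The ratio was above pLKO in the other 3 groups, mainly through AEBP2 and MTF2 in shPALI1, AEBP2 in shG9a and JARID2 itself in shJarid2. In shPALI1 JARID2 was also lower (7.45 against 8.62 RPKM in pLKO), as was PHF1 (4.08 against 4.88 RPKM), and neither passed. Among the Polycomb-like mRNAs MTF2 made up 68.9% ± 2.1 in shPALI1, 66.4% ± 2.1 in shG9a, 44.5% ± 4 in shJarid2 and 56.9% ± 2.8 in shsuz12, against 60.5% ± 2.7 in pLKO. PHF1 made up 48.9% ± 3.8 in shJarid2, against 33.7% ± 2.3 in pLKO. With GENCODE lengths PHF1 made up 63.5% in shJarid2, against 48.1% in pLKO, and MTF2 31.7% in shJarid2, against 47.4% in pLKO. PHF19 stayed between 5.75% and 7.47% in the group means. The ratio was 1.24 in shPALI1, 1.07 in shG9a, 1.51 in shJarid2 and 0.645 in shsuz12, against 0.895 in pLKO with GENCODE lengths, on the same side of pLKO in each group. These shares are mRNA levels, not protein.

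**Figure D4:**
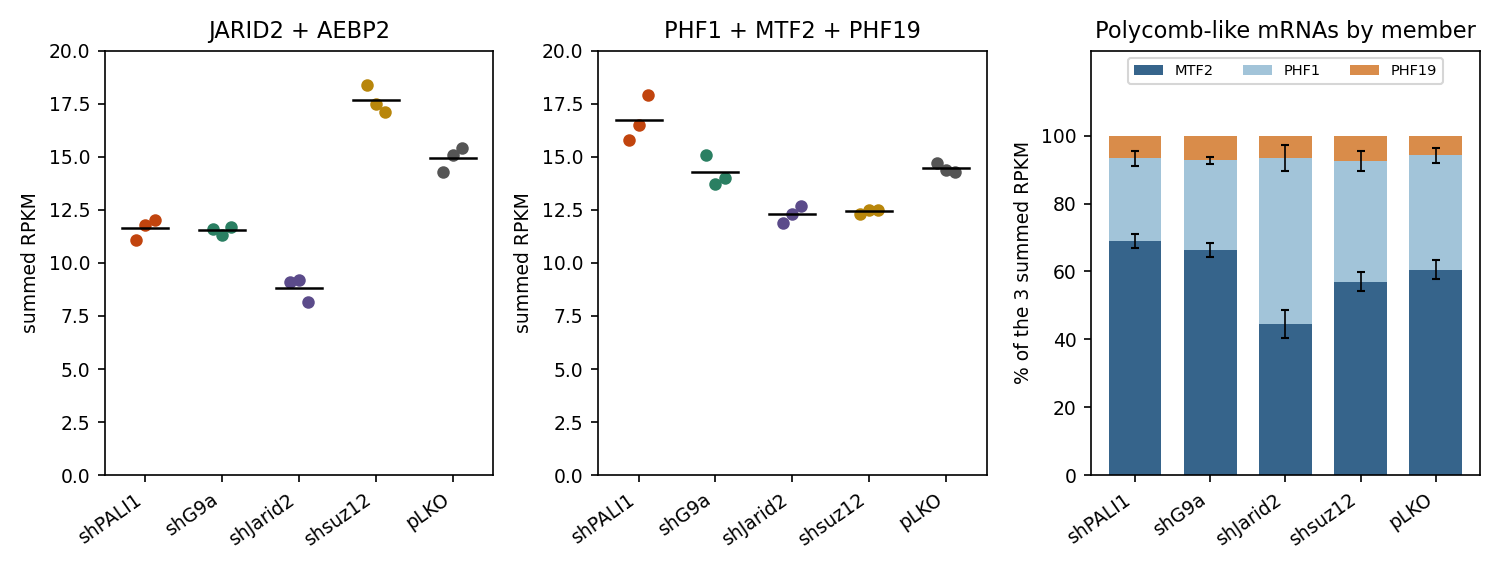
Left and middle, RPKM summed over JARID2 and AEBP2 and over the 3 Polycomb-like genes, with a point per library and a line at the group mean; right, mean shares of the 3 Polycomb-like mRNAs by group, with SD over 3 libraries at the upper edge of MTF2 and PHF1. JARID2 plus AEBP2 averages 8.82 RPKM in shJarid2 and 17.7 RPKM in shsuz12, against 14.9 RPKM in pLKO, and the Polycomb-like sum is highest in shPALI1 at 16.7 RPKM, against 14.5 RPKM in pLKO.

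The core genes behind these accessory subunits moved in their own ways. SUZ12, the scaffold that both kinds of accessory subunit bind, had a difference of -2.58 ± 0.10 in shsuz12 (adjusted p = 7.1e-10). EZH2, the catalytic subunit, fell by 0.53 ± 0.06 in shJarid2 (adjusted p = 6.5e-06) and by 0.58 ± 0.06 in shsuz12 (adjusted p = 2.6e-06), the 2 groups in which MTF2 also fell. RBBP4, a histone-binding subunit, fell by 1.0 ± 0.07 in shJarid2 (adjusted p = 5.3e-08), by 0.37 ± 0.07 in shG9a (adjusted p = 0.00066) and by 0.17 in shsuz12 (adjusted p = 0.049), and rose by 0.44 ± 0.07 in shPALI1 (adjusted p = 0.00017). Of the 6 core genes 2 rose and 0 fell in shPALI1, 1 rose and 3 fell in shG9a, 0 rose and 2 fell in shJarid2, and 1 rose and 4 fell in shsuz12, where SUZ12 itself is among the 4. Over all tested genes 41.6%, 43.1%, 51.0% and 53.9% passed in these comparisons, in the same order. RBBP7, the paralogue of RBBP4, rose by 0.32 in shPALI1 (adjusted p = 0.00086) and fell by 0.32 in shG9a (adjusted p = 0.00089) and by 0.48 in shsuz12 (adjusted p = 2e-05). C10orf12, the part of the LCOR locus that gives PALI1 its PRC2-binding region, fell by 1.37 ± 0.21 in shPALI1 (adjusted p = 0.00013) and passed under no other hairpin. The LCOR entry of that locus fell by 0.58 in shPALI1 (adjusted p = 0.0067) and rose by 0.58 in shsuz12 (adjusted p = 0.0051). LCORL, of the same list, fell by 0.59 in shsuz12 (adjusted p = 0.0021).

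KDM6B, an H3 lysine 27 demethylase, rose under all 4 hairpins: by 0.38 in shPALI1 (adjusted p = 0.0042), 0.95 in shG9a (adjusted p = 2.1e-06), 0.68 in shJarid2 (adjusted p = 2.6e-05) and 0.84 in shsuz12 (adjusted p = 3.6e-06). KDM6A, the X-linked demethylase, passed in none. Among 12 tested genes of canonical PRC1, the complex that reads the PRC2 mark, 2 rose and 2 fell in shPALI1, and 2 rose and 2 fell in shG9a. In shJarid2 2 rose and 7 fell, and in shsuz12 2 rose and 6 fell. Over all tested genes 41.6% passed in shPALI1, 43.1% in shG9a, 51.0% in shJarid2 and 53.9% in shsuz12. In the same order 25.1%, 24.7%, 27.2% and 32.8% of all tested genes fell. CBX6, a reader of the mark, rose by 1.15 ± 0.06 in shPALI1 (adjusted p = 9.4e-09), by 1.71 ± 0.06 in shG9a (adjusted p = 3.5e-10), by 0.17 in shsuz12 (adjusted p = 0.041), and fell by 0.22 in shJarid2 (adjusted p = 0.011). SCMH1, a PRC1-associated protein, rose by 0.73 in shJarid2 (adjusted p = 1.3e-07) and fell by 0.54 in shPALI1 (adjusted p = 4.2e-06) and 0.30 in shsuz12 (adjusted p = 0.00045). CBX7, another reader, fell under all 4 hairpins, by 0.42, 0.34, 0.40 and 0.55 in shPALI1, shG9a, shJarid2 and shsuz12. Among 11 genes of variant PRC1, which lays down the ubiquitin mark that JARID2 and AEBP2 bind, 4 rose and 2 fell in shPALI1, and 2 rose and 2 fell in shG9a. In shJarid2 2 rose and 1 fell, and in shsuz12 2 rose and 5 fell. The shares over all tested genes are those given above with canonical PRC1.

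Proliferation genes fell alongside. Of 15 genes of DNA replication 10 fell in shPALI1, 9 in shG9a, 14 in shJarid2 and 15 in shsuz12, and of 13 mitotic genes 9, 11, 13 and 13 fell in the same order. In shG9a 1 replication gene rose, and no other gene of either list passed as higher against pLKO. Over all tested genes 25.1% fell in shPALI1, 24.7% in shG9a, 27.2% in shJarid2 and 32.8% in shsuz12. The replication list had a median difference of -0.33 in shPALI1, -0.36 in shG9a, -0.54 in shJarid2 and -1.0 in shsuz12. The calls of the 6 genes went both ways in shPALI1, shJarid2 and shsuz12, while in shG9a 3 fell and 0 rose. MTF2 rose by 0.36 in shPALI1, PHF1 by 0.26 in shJarid2 and JARID2 by 0.45 in shsuz12. Their other calls against pLKO were falls, and C17orf96 had a difference of 0.13 in shPALI1 that did not pass. The part of the replication and mitotic lists in the differences of the 6 genes was not tested.

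**Figure D5:**
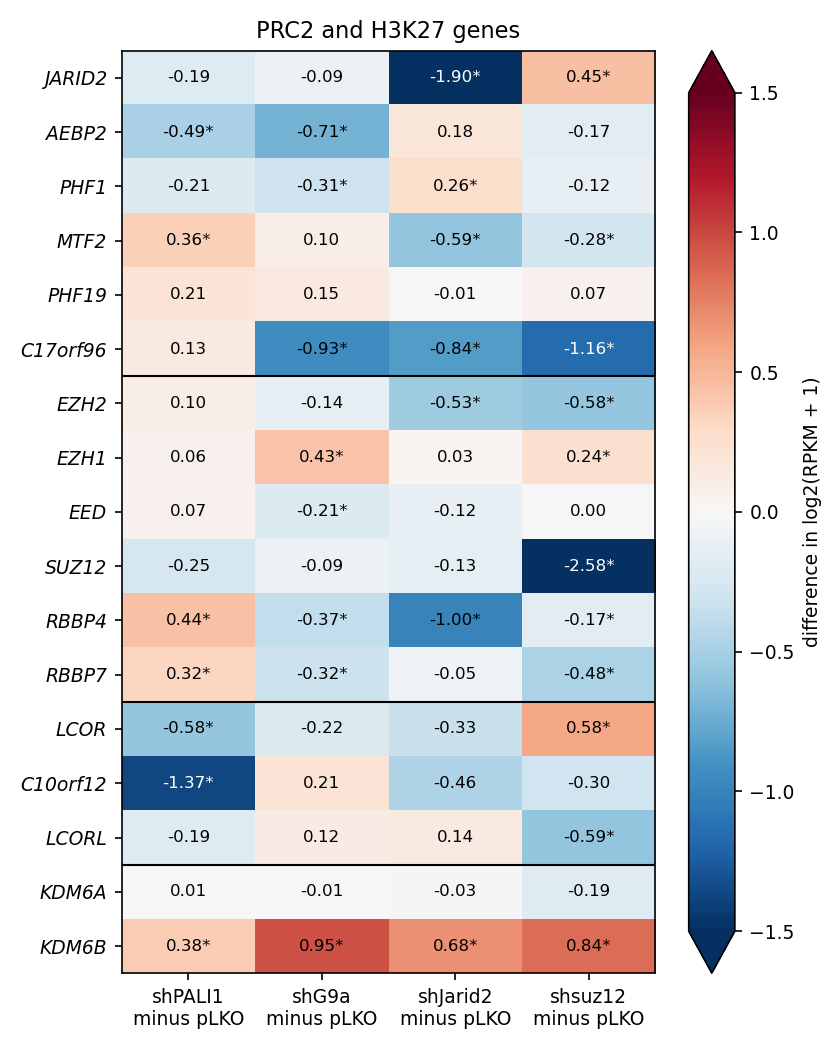
Differences in log2(RPKM + 1) of PRC2 accessory and core genes and related genes in each hairpin group minus pLKO, as numbers and colour (colour is limited to 1.5 either way). An asterisk marks an adjusted p below 0.05. C17orf96 and EZH2 are both low in shJarid2 and shsuz12, and MTF2 and RBBP4 are both high in shPALI1.

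The genes whose log2 level followed each member most closely over the 15 libraries were ranked by Pearson's r among 9932 expressed genes (9933 for PHF19). For AEBP2 the closest was FOLH1, which encodes prostate-specific membrane antigen, at r = 0.975. FOLH1 averaged 128 RPKM in shPALI1, 109 in shG9a, 186 in shJarid2 and 147 in shsuz12, against 168 RPKM in pLKO. For MTF2 the closest was L3MBTL3, a reader of methylated lysine, at 0.98, and it averaged 6.51, 3.92, 1.41 and 2.4 RPKM in shPALI1, shG9a, shJarid2 and shsuz12, against 3.51 RPKM in pLKO. For C17orf96 it was HNRNPC, an RNA-binding protein, at 0.979, followed by LDHB, a lactate dehydrogenase subunit, at 0.972. LDHB averaged 150 RPKM in shPALI1, 70.6 in shG9a, 93 in shJarid2 and 70.5 in shsuz12, against 144 RPKM in pLKO.

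The closest gene was MTURN for JARID2 (r = 0.985), ASS1 for PHF1 (0.953) and LYPLA2 for PHF19 (0.861). ASS1 encodes argininosuccinate synthase. These values were picked as the highest among all genes compared and rest on 5 group means, so they describe the pattern only.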

How the data were processed

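Gene-level RPKM values were deposited by the authors as 1 table for 15 libraries. Reads were aligned with STAR (version not given in the sources used here) to hg38, per the submitters' processing notes, and libraries were made from 0.5 µg total RNA by an NEBNext Ultra protocol, per the labels. Depth and whole reads behind each member were recovered from single-read steps, with 92.7% to 94.8% of low values whole within 0.05 of a read. Intervals on reads cover counting error only.

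Genes at 1 RPKM or more in at least 3 libraries were kept (12715 genes), and log2(RPKM + 1) was fitted over all 5 groups with limma 3.58.1 in R 4.3.3 (empirical Bayes with a mean trend, two-sided, Benjamini-Hochberg within each of 10 comparisons). On simulated reads with a fixed spread, for shPALI1 against pLKO alone, the fit was tested before use. That does not bear on the spread of the real libraries or on the other comparisons. Other genes named were among the 4 of smallest p in their list in at least 1 comparison, and like-pattern genes as those of highest r. The members and lists were chosen with earlier results of these data known. Alternatives were other pseudocounts, filters, scalings, fits of 6 libraries, a replicate block and leaving out each library. Sequences came from RefSeq (GRCh38.p14) and gene models from GENCODE v29. 1 luminal marker is not reported here and was left out of the summed level.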

Additional observations from a re-analysis of the deposited data

How the results depend on the processing

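Of the 12 calls of a member against pLKO, 9 kept direction and call under all 24 alternatives, and no called difference changed sign. PHF19 in shPALI1 passed with no filter (0.21) and median ratio scaling (0.24). AEBP2 in shJarid2 passed with either median ratio or quantile scaling (0.21 in both). PHF1 lost its call in shG9a with a common sum (-0.21) and in shJarid2 with 6 libraries alone (0.26). MTF2 in shsuz12 lost its call with median ratio scaling (-0.18) and a common sum (-0.16). The cause was not tested. Leaving out each library in turn gave -0.24 to -0.13 for JARID2 and -0.27 to -0.15 for PHF1 in shPALI1, -0.35 to -0.25 for PHF1 in shG9a, 0.10 to 0.24 for AEBP2 and 0.18 to 0.31 for PHF1 in shJarid2, and -0.25 to -0.11 for AEBP2 in shsuz12. Of the 25 calls between hairpins 20 kept their call under every alternative. A common sum moved the median of all genes by 0.109 in shsuz12 against pLKO, by 0.116 in shG9a minus shJarid2 and by -0.128 in shJarid2 minus shsuz12. With it the share of calls that were higher was 58% in shG9a and 53.3% in shsuz12 against pLKO, beside 42.7% and 39.1% as reported.

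Replicate numbers did not pair the samples. After the group mean of each gene was subtracted, same-numbered libraries of different groups correlated at -0.27 to 0.3. On those values 7 of 15 libraries were most like one of their own number among the libraries of other groups. With a replicate block 5117 genes passed in shPALI1 against pLKO, beside 5290 without it, and of the member calls 1 changed, AEBP2 in shPALI1 minus shG9a (0.21, adjusted p = 0.0576). Depth limits PHF19 most, at 42 to 91 reads per library.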
